A study of Mus musculus with 12 samples.

Results

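The comparison described here set the fallopian tube of 1 transgenic mouse against that of 1 wildtype mouse, both 9 weeks old. It rests on 4 of the 12 arrays of the series, 2 repeat arrays for each mouse, chosen by their labels and without use of any measured value. Both mice were females on the C57BL6 background, the wildtype mouse unmodified and the other carrying the mogp-TAg transgene. Total RNA of the whole tube was hybridised to 1-colour Illumina mouse BeadChips as biotin-labelled cRNA primed from poly(A) tails. The other 8 arrays held a wildtype and a mogp-TAg transgenic mouse at 7 weeks and another such pair at 8 weeks. With 1 mouse of each genotype at 9 weeks, a difference between the genotypes and a difference between the 2 animals cannot be told apart, and the 9-week differences carry no p-value.

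In mogp-TAg mice the oviductal glycoprotein promoter drives SV40 large T antigen, and this promoter is active in secretory cells of the tube's epithelium. Large T antigen binds the RB family, which frees E2F factors to switch on genes of S phase, and it binds and blocks p53. The tube is lined by secretory and ciliated cells and wrapped in stroma, smooth muscle and an outer mesothelium, and whole-tube RNA holds all of these. In such bulk RNA, fewer cells of a type and less RNA per cell cannot be told apart. The transgene is a tumour model driven in mouse secretory cells, and the viral gene itself was not analysed here.

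The tube identity of the arrays was plain in both mice. Ovgp1, which encodes oviductal glycoprotein and lends the transgene its promoter, gave normalized signals of 23190.0 and 21498 in the wildtype and 22467 and 13976 in the transgenic mouse. The wildtype and transgenic values overlapped, and the log2 difference was -0.33. Before normalization the median signal of the 4 arrays ran from 145.3 to 306, and it was higher in repeat 1 than in repeat 2 of both mice. After normalization the 2 wildtype arrays correlated at 0.983 and the 2 transgenic arrays at 0.976 over 16664 probes. Of the 4 arrays, 3 correlated more closely with an array of another mouse than with their own partner. Both transgenic repeats did so with repeat 1 of the 8-week transgenic mouse (0.984 and 0.987), and wildtype repeat 1 did so with repeat 1 of the 7-week wildtype mouse (0.986). The repeats of the transgenic mouse differed by at least 2-fold at 99 of 11229 genes and those of the wildtype mouse at 31. The labels do not say whether the repeats share an RNA extract or an animal. They were taken as repeats of 1 mouse, and their spread may be technical.

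A gene was counted as higher or lower when the nearest arrays of the 2 mice were at least 2-fold apart, so that every transgenic array cleared every wildtype array. By this rule 249 of 11229 genes (2.22%) were higher in the transgenic mouse and 309 (2.75%) were lower. The median fold of the counted genes was 3.65 upward and 3.20 downward, and 33 genes differed by at least 8-fold upward against 13 downward. Arrays that merely did not overlap were far more common, at 27.2% of genes upward and 31.1% downward. The genes nearest to the 2-fold line had a gap that rounded to log2 1.0 just inside it on both sides, and to 1.0 upward and 0.996 downward just outside it. Signals sit on a background floor near 71.3, and a gene was called near the floor when its mean in a mouse lay below 142.7. Of the higher genes, 84 were near the floor in the wildtype mouse, and of the lower genes 91 were near it in the transgenic mouse. The folds of those genes may be understated.

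**Figure D1:**
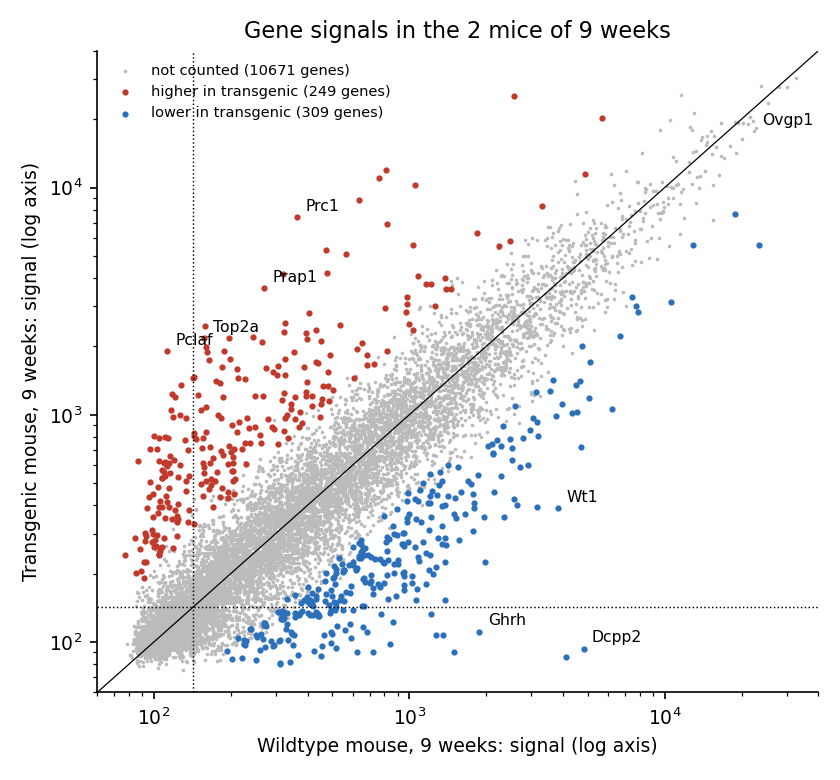
Mean normalized signal of each of 11229 genes in the wildtype (horizontal) and transgenic (vertical) mouse of 9 weeks, both on log axes, with dotted lines at the floor limit of 142.7 and a solid line at equal signal. The 249 genes counted higher lie above the line and the 309 counted lower lie below it, with Dcpp2 farthest down and Prc1 farthest up.

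Genes of cell division held most of the largest increases. Clone and model names, borne by 2 of the higher and 11 of the lower genes, were left out when the largest differences were ranked. Prc1, which bundles microtubules at the spindle midzone during cytokinesis, had signals of 408 and 323 against 6997 and 7896 (wildtype, then transgenic). Every transgenic array was far above both wildtype arrays, and the fold was 20.5 (log2 4.36). Pclaf, a small partner of the replication clamp PCNA, had 109.8 and 116 on the wildtype arrays and 2228 and 1619 on the transgenic arrays, a 16.8-fold difference from a wildtype level near the floor. For Pbk, a kinase active in mitosis, the arrays gave 146 and 173 in the wildtype and 2307 and 2647 in the transgenic mouse. That is 15.5-fold, with the repeats of each mouse close together. Top2a, the topoisomerase that untangles replicated chromosomes, read 155 and 160.1 against 2292 and 2060.2 (wildtype, then transgenic) and was 13.8-fold higher. The helicase subunit Mcm5 read 334 and 308 on the wildtype arrays and 4418 and 3942 on the transgenic arrays, or 13-fold. Cdk1, the kinase that drives entry into mitosis, read 153 and 170.2 in the wildtype and 2392 and 1483 in the transgenic mouse. Both transgenic arrays lay far above the wildtype arrays, and the fold was 11.7.

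Uhrf1, which brings DNA methyltransferase to newly copied DNA, had signals of 501 and 448 against 5536 and 5049 (wildtype, then transgenic) and was 11.2-fold higher. Birc5, or survivin, a member of the chromosomal passenger complex, had 165 and 163 on the wildtype arrays and 1576 and 1924 on the transgenic arrays. Spc25, part of the kinetochore's Ndc80 complex, had 135 and 120.4 in the wildtype and 1301 and 1398 in the transgenic mouse. The spindle protein Nusap1 had 182 and 140.4 against 1892 and 2092 (wildtype, then transgenic). None of these transgenic arrays came within 8-fold of a wildtype array. Nusap1, Cdk1 and Uhrf1 also had dimmer probes whose 9-week differences were small, from 0.37 to 0.67, 0.18 to 0.20 and 0.50 on the log2 scale, whereas the dimmer probes of Birc5 (2.99) and Spc25 (3.27) gave differences nearly as large. Prap1, a secreted proline-rich acidic protein of epithelia, was the 1 gene of the 15 largest increases that belonged neither to the cell division lists nor to the histones, with 256 and 285 on the wildtype arrays and 3670.2 and 3543 on the transgenic arrays, a 13.4-fold difference.

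**Figure D2:**
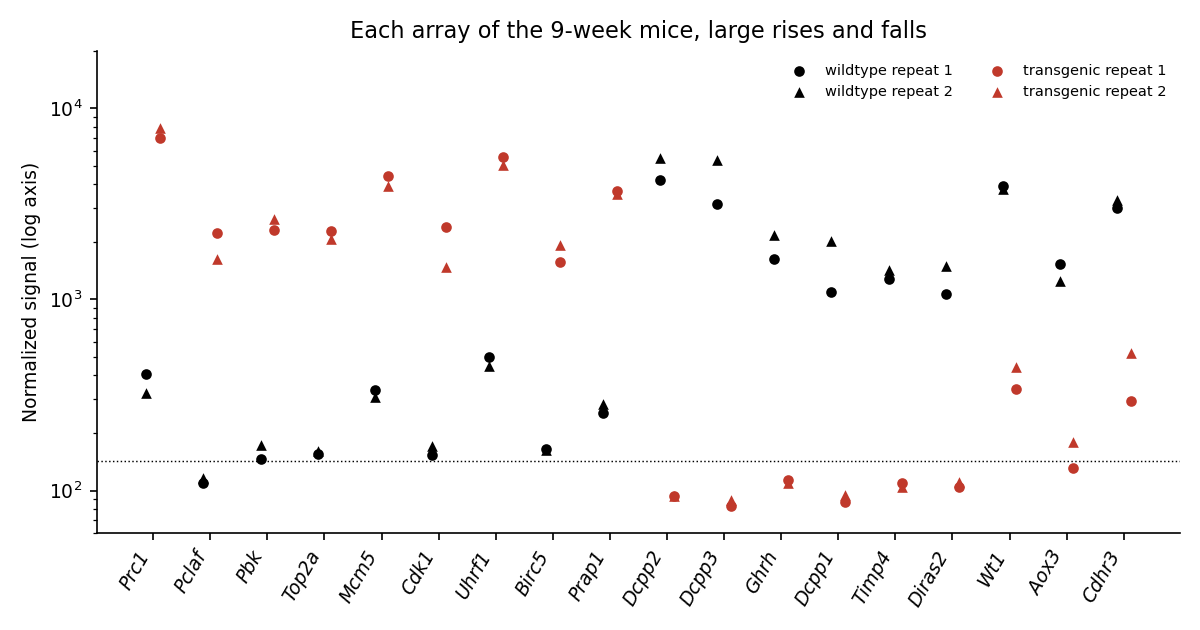
Normalized signal (log axis) on each of the 4 arrays of the 9-week mice for 9 genes that were higher and 9 that were lower in the transgenic mouse, wildtype in black and transgenic in red, circles for repeat 1 and triangles for repeat 2, with the floor limit of 142.7 dotted. In all 18 genes the 2 genotypes are separated on every array, and the transgenic values of Dcpp1, Dcpp2, Dcpp3, Ghrh, Timp4 and Diras2 lie under the floor limit.

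Promoters of 5 counted genes are shown because the genes of mitosis, of replication and of the interferon response carried different short motifs just upstream. Each runs from 250 bases before to 50 bases after the RefSeq start in build GRCm38.p6, read 5′ to 3′ along the gene, with motif matches on either strand in capitals. In Prc1 (chr7:80294201-80294500, plus strand) and Top2a (chr11:99024140-99024439, minus strand) the capitals mark TTTGAA, the cell cycle homology element. In Mcm5 (chr8:75109259-75109558, plus strand) and Pclaf (chr9:65890073-65890372, plus strand) they mark E2F motifs, and in Isg15 (chr4:156200769-156201068, minus strand) overlapping interferon-stimulated response elements.
Prc1: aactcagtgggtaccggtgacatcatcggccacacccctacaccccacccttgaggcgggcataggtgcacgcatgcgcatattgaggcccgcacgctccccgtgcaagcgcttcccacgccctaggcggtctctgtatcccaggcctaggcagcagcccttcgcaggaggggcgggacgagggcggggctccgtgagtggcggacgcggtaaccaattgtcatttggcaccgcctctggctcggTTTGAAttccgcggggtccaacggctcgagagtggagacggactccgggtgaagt
Top2a: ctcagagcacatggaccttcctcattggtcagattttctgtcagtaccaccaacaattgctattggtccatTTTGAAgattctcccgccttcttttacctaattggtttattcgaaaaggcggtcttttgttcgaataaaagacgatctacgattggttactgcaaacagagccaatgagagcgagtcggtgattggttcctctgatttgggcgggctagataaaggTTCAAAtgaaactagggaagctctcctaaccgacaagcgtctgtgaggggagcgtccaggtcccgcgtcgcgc
Mcm5: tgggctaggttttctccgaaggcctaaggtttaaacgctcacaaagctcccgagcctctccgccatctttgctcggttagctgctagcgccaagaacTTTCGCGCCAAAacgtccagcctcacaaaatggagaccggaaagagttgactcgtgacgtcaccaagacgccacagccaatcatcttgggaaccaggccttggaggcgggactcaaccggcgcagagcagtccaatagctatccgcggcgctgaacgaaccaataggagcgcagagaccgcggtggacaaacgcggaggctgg
Pclaf: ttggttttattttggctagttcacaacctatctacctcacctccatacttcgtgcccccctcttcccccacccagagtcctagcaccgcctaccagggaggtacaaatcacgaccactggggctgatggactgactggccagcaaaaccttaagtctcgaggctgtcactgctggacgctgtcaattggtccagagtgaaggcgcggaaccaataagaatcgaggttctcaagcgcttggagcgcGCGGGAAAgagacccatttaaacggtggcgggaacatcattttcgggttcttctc
Isg15: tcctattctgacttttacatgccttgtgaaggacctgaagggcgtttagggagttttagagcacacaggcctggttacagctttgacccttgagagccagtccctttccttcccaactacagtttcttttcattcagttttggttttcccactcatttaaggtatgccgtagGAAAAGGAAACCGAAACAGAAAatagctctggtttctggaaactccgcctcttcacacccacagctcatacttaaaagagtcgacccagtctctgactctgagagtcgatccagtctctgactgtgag

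TTTGAA, searched on both strands, occurred in 25 of the 33 mitosis genes with a promoter (75.8%), against 12.2% of the 9067 measured genes with one. The E2F motif, spelled TTTGGCGC, TTTCGCGC or TTTCCCGC, was present in 9 of 30 replication genes (30%) and in 3.29% of all. The response element, GAAA followed by any 2 bases and GAAA again, was found in 16 of 31 interferon genes (51.6%) and in 3.19% of all. Among the counted genes, the E2F motif was in 32 of 199 higher and 1 of 233 lower promoters, TTTGAA in 62 and 34, and the response element in 12 of each. CCAAT, a frequent partner of these elements, was in 53.8% of the higher, 39.1% of the lower and 38.8% of all promoters. The RFX X-box of ciliary genes, spelled GTTNCC, any 2 bases and GGNAAC, was in 0 of 31 axoneme promoters and in 43 of the 9067. A letter match describes the window and is not a measured binding site, and matches on opposite strands or in overlapping frames were counted once per gene.

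The counts of the lists stand beside 2.22% of all genes counted higher and 2.75% counted lower. Across the lists, 33 of 41 measured genes of mitosis and cytokinesis were counted higher (80.5%) and 0 lower. Their median log2 difference was 2.51, against -0.02 over all genes. All 41 had transgenic arrays above the wildtype arrays, a separation seen in 27.2% of all genes, and the lowest, the securin gene Pttg1 (0.18), was near the floor in both mice. Counted members included Kif23 at 3.30, the centromeric histone Cenpa at 3.17, the Polo kinase Plk1 at 2.92 and Ndc80 at 2.88. The 8 that were not counted included Spc24, of the same Ndc80 complex, at 1.0, the spindle checkpoint kinase Ttk at 0.64 and the kinesin Kif18a at 1.25. DNA replication genes were counted higher in 31 of 37 cases (83.8%) and lower in 0, with a median of 1.99. After Pclaf, Mcm5 and Uhrf1 came the initiation factor Mcm10 (3.39) and the nucleotide enzymes Tk1 (3.35) and Tyms (2.85). All 6 measured helicase or helicase-loading Mcm genes were counted, from Mcm7 (1.87) and Mcm3 (2.29) through Mcm4 (2.43) and Mcm2 (2.68) to Mcm6 (2.80) and Mcm5 (3.70).

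DNA damage repair genes were counted higher in 10 of 26 cases (38.5%, against 2.22% of all genes) and lower in 0, with a median of 0.92. Rad54b and Rad54l, motor proteins of homologous recombination, differed by 3.04 and 2.36, and the checkpoint mediator Clspn by 2.80. Rad54b had signals of 152 and 146 in the wildtype and 919 and 1616 in the transgenic mouse, with its transgenic arrays apart from each other and both far above the wildtype arrays. Brca1 (0.80), Brca2 (0.77) and Parp1 (0.52) were not counted, and the checkpoint kinase Chek2 was the lowest member at -0.68. Of 16 chromatin genes 7 were counted higher (43.8%) and 0 lower. They were led by the chromatin protein Hmgb2 (2.95), the microtubule regulator Stmn1 (2.55) and the nuclear lamina gene Lmnb1 (2.16, with a dimmer probe at 0.49).

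**Figure D3:**
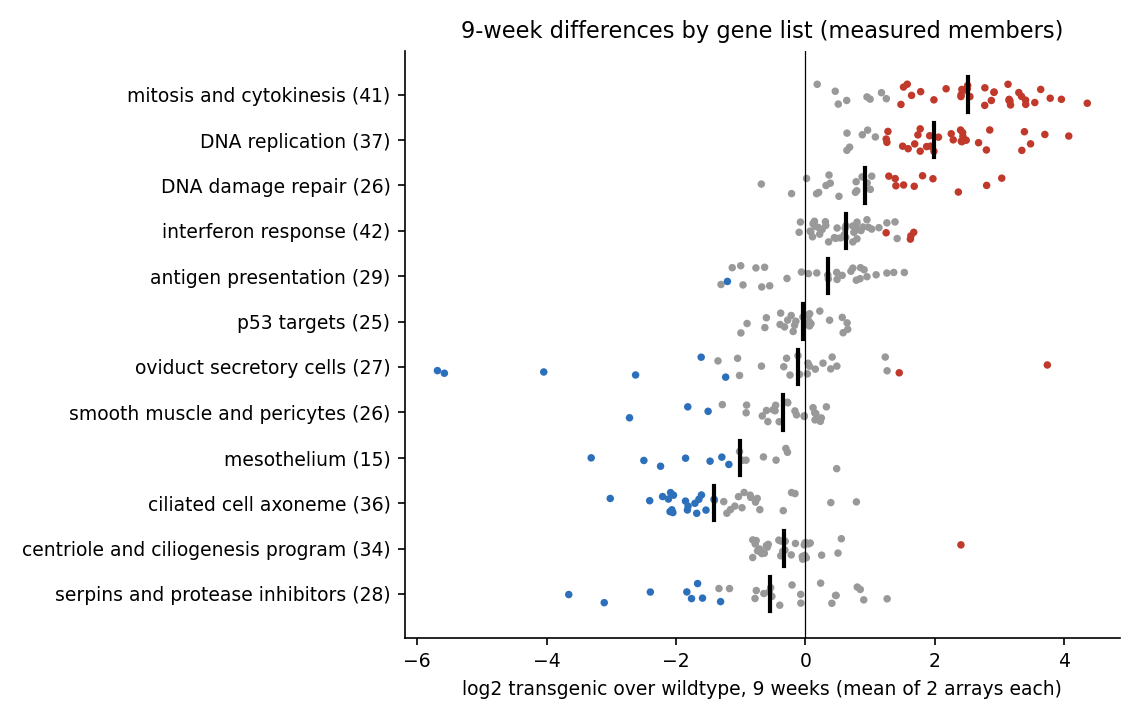
Log2 difference, transgenic over wildtype at 9 weeks, for every measured member of 12 gene lists (number of members in brackets), with red points counted higher, blue points counted lower, grey points not counted and a black bar at the list median. Mitosis and replication members lie to the right of 0, axoneme and mesothelium members mostly to the left, and p53 targets spread around 0 with none counted.

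Within the RB pathway several E2F family and cell cycle regulators were higher and 2 of the D-type cyclins were lower. E2f1, the factor that RB holds in check, had signals of 185 and 241 against 1533 and 1642 (wildtype, then transgenic), a 7.51-fold difference with no overlap. In all, 11 of 25 members were counted higher (44%, against 2.22% of all genes). They included the Cdk inhibitor Cdkn2c (2.43), the mitotic activator Foxm1 (2.26), Mybl2 (1.91), E2f2 (1.9) and the pocket protein gene Rbl1 (1.41). The 2 lower members were Ccnd2, with 1394 and 1156 on the wildtype arrays and 206 and 220.0 on the transgenic arrays, and Ccnd1, with 4079 and 5073 in the wildtype and 1053 and 1000.3 in the transgenic mouse. The third D-type cyclin gene, Ccnd3, differed by -0.44 with arrays only narrowly apart and was not counted, and E2f3 (0.27), E2f4 (0.50) and E2f7 (0.25) also fell short of the 2-fold gap. Ccnd1 and Ccnd2 pair with Cdk4 and Cdk6 to phosphorylate RB, and Ccnd2 was 5.96-fold and Ccnd1 4.43-fold lower. Rb1 itself read 884 and 685 against 1159.6 and 1103 (wildtype, then transgenic) and was not counted (log2 0.54). Cdkn2a, whose locus encodes p16 and ARF, differed by 0.85 from a wildtype level near the floor.

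None of the 25 p53 targets was counted in either direction, and their median was -0.04. Over all genes 2.22% were counted higher and 2.75% lower, so a list of this size would hold few counted genes at those shares. Cdkn1a, the p21 inhibitor of Cdks, had 584 and 784 on the wildtype arrays and 976 and 1055 on the transgenic arrays and differed by 0.58. Mdm2, the ligase that degrades p53, had 1373 and 1411 in the wildtype and 977 and 1529 in the transgenic mouse, so that the transgenic arrays lay on either side of the wildtype arrays. The extremes of the list were Apaf1, an apoptosome component (0.65), and the phosphatase gene Ptprv (-1.0), the latter near the floor in the transgenic mouse.

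Histone genes differed in both directions. Of 44 measured, 8 were counted higher (18.2%, against 2.22% of all genes), all of them H2A genes. Another 5 were counted lower (11.4%, against 2.75% of all genes). H2ac7 read 913 and 725 against 10673 and 13317 (wildtype, then transgenic) and was 14.7-fold higher, followed by H2ac15 (3.85), H2ac12 (3.80) and H2ac11 (3.46). H2ac18 (-1.76), H2bc14 (-1.53), H2bc15 (-1.53), H2bc9 (-1.49) and H4c8 (-1.41) were the lower members. Replication-dependent histone genes are near-identical copies, so probes can share transcripts and the 8 H2A values are not independent. Their messages normally end without a poly(A) tail, and the labelling was primed from poly(A).

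The 5 largest decreases were in genes of secreted proteins. Dcpp2 had signals of 4235 and 5477 on the wildtype arrays and 94.0 and 93.1 on the transgenic arrays, a measured fold of 51.5 against transgenic arrays close to the floor. Dcpp3 had 3170.3 and 5333 in the wildtype and 82.8 and 89.4 in the transgenic mouse and Dcpp1 1099 and 2024 against 86.6 and 94.6 (wildtype, then transgenic). The Dcpp proteins are secreted, and in mouse the oviductal form has been linked to growth of the early embryo. The 3 genes are close copies whose probes can share transcripts. Ghrh, which encodes growth hormone-releasing hormone, had 1631 and 2173 on the wildtype arrays and 113 and 109 on the transgenic arrays (log2 -4.08). The metalloproteinase inhibitor Timp4 had 1273 and 1432 in the wildtype and 109 and 105 in the transgenic mouse, and the small GTPase gene Diras2 had 1071 and 1501 against 104 and 111 (wildtype, then transgenic). All of these sat near the floor on every transgenic array, so the wildtype tube had a clear signal where the transgenic tube had none clearly above the floor.

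Further large decreases had transgenic means above the floor limit. Wt1, a transcription factor of mesothelium and the gonadal ridge, had 3917 and 3764 on the wildtype arrays and 338 and 444 on the transgenic arrays, which is 9.91-fold lower in the transgenic mouse. Aox3, an aldehyde oxidase, had 1539 and 1243 in the wildtype and 131 and 179 in the transgenic mouse. Prr18 had 1732 and 2260.0 against 203 and 249 (wildtype, then transgenic) and Ttc29, a flagellar protein, 871 and 1286 on the wildtype arrays and 131 and 177 on the transgenic arrays. The aldo-keto reductase Akr1cl (-3.19), the serpin Serpinb11 (-3.11), Mmd2 (-3.0) and the noradrenaline transporter Slc6a2 (-2.81) had transgenic levels near the floor and, with Cdhr3 of the ciliated cells, completed the 15 largest decreases. Dimmer probes of Akr1cl (-0.31) and of Slc6a2 (-0.39 and -0.30) differed little.

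Ciliated cell genes were lower as a group. Of 36 measured axoneme and ciliated cell genes 18 were counted lower (background 2.75%) and 0 higher, with a median of -1.41, and in 34 the transgenic arrays lay wholly below the wildtype arrays (background 31.1%). Cdhr3, a cadherin-related protein of ciliated cells, had 3012 and 3317 in the wildtype and 293 and 523 in the transgenic mouse, or 8.08-fold lower. The dynein intermediate chain Dnaic1 had 706 and 959.9 against 129 and 186 (wildtype, then transgenic), and the inner arm light chain Dnali1 1464 and 2193 on the wildtype arrays and 352 and 429 on the transgenic arrays. Radial spoke (Rsph1, -2.08), tektin (Tekt1, -2.06) and central pair (Spag6l, -2.04) genes were likewise counted. Foxj1, the master regulator of motile cilia, read 184 and 274 in the wildtype and 127 and 123 in the transgenic mouse and was not counted (log2 -0.84), its transgenic level being near the floor. The tubulins Tubb4b (0.39) and Tuba1a (0.79), which other cells also make, were the highest members. The summed signal of the list was 39328 and 48252 in the wildtype arrays against 25056 and 19450 in the transgenic arrays. The 2 tubulins took a larger part of the transgenic sums. Tubb4b had 3931 and 4555 against 7133 and 4334, and Tuba1a 3664 and 3176 against 7570 and 4589 (wildtype, then transgenic).

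The centriole and ciliogenesis list, which holds many Ift and Bbs genes beside regulators, had 1 of 34 genes counted higher, 0 lower and a median of -0.33. In 19 of its genes the transgenic arrays lay wholly below the wildtype arrays (31.1% of all genes did). In 4 they lay wholly above (27.2% of all genes). Its counted member was Plk4, the kinase that starts centriole duplication in dividing and multiciliated cells, with 120.2 and 119 against 643 and 623 (wildtype, then transgenic). Of its members, 10 were near the floor in both mice.

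Secretory cell genes went both ways. Of 27 measured, 2 were counted higher (7.41%, against 2.22% of all genes), Prap1 and the anion exchanger Slc26a4 (1.45). Another 6 were lower (22.2%, against 2.75%), namely the 3 Dcpp genes, the matrix protein Chad (-2.62), the chloride channel Cftr (-1.61) and the chaperone-like secreted protein clusterin, Clu (-1.23). Pax8, a factor that marks secretory cells, had 665 and 450.4 on the wildtype arrays and 534 and 695 on the transgenic arrays, with overlapping genotypes. The median of the list was -0.11. Of 32 epithelial junction and keratin genes 2 were higher, Cdh16 with 127 and 140.0 in the wildtype and 923 and 1011 in the transgenic mouse and Krt17, a keratin of stressed and basal epithelia, with 103 and 112 against 431 and 642 (wildtype, then transgenic), and 0 were lower. Their wildtype levels were near the floor.

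Protease inhibitors were lower in 8 of 28 cases (28.6%, against 2.75% of all genes) and higher in 0, with a median of -0.55 against -0.02 over all genes. Besides Timp4 and Serpinb11 they included Serpina3n, an acute phase antiprotease, with 1385 and 756 on the wildtype arrays and 178 and 213 on the transgenic arrays. In ion and water transport 3 of 25 genes were higher and 3 lower (12% each way, against 2.22% and 2.75% of all genes). The water channel Aqp8 had 132 and 133 in the wildtype and 823 and 726 in the transgenic mouse and carbonic anhydrase Car2 314 and 277 against 1013 and 739.6 (wildtype, then transgenic), both higher, with Slc26a4 as the other. The lower members were the chloride channel Ano1 (-1.80), Cftr and the water channel Aqp1, with 5186 and 5013 on the wildtype arrays and 1384 and 2105 on the transgenic arrays.

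Among markers of the other cell layers, the mesothelial list held the largest share of lower genes (46.7%, against 2.75% of all genes). Of 15 mesothelial markers 7 were counted lower and 0 higher (median -1.02), with Wt1, the factor Gata6 (-2.50) and the uroplakin Upk3b, at 1956 and 2369.5 in the wildtype and 461 and 452 in the transgenic mouse, as the lowest. Their summed signal was 19838 and 19111 in the wildtype arrays and 8776 and 7564 in the transgenic arrays. Of 26 smooth muscle and pericyte markers 3 were lower (11.5%), the amine oxidase Aoc3 (-2.72), desmin (Des, -1.82) and transgelin (Tagln, -1.50), and 0 higher. The contractile genes Acta2 (-0.02), Myh11 (-0.58), Actg2 (-0.91), Lmod1 (-1.28) and Cnn1 (-0.27, near the floor in both mice) were not counted. In 15 of the 26 the transgenic arrays lay wholly below the wildtype arrays (31.1% of all genes did). In 4 they lay wholly above (27.2% of all genes), and the median was -0.34. The summed signal was 79847 and 78286 in the wildtype arrays against 65064 and 67997 in the transgenic arrays. Fibroblast matrix genes numbered 1 higher of 38 (2.63%, against 2.22% of all genes), the microfibril protein Mfap5 at 277 and 386 against 1397 and 1597 (wildtype, then transgenic). Another 5 were lower (13.2%), among them Timp4, Spon2 (-2.54) and Dpt (-1.77). Of 21 endothelial markers 0 were counted (from Esam, -1.26, to Sox7, 0.89). Of 14 adipocyte markers 3 were lower (21.4%), Plin4 (-2.31), Cidea (-2.0) and Thrsp (-1.42). What part these cell types have in the differences of other genes was not tested.

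Markers of skeletal muscle, ovary and nerve, which could be carried along at dissection, were weak, unlike those of erythrocytes. The 13 skeletal muscle markers had 0 counted (Actn2 0.54, Acta1 -1.13), as had the 17 ovary and follicle markers (Ptgfr 0.48, Gdf9 -0.98), with 7 and 9 of them near the floor in both mice. Summed ovarian signal was 2464 and 2222 in the wildtype and 1886 and 1999.7 in the transgenic arrays. In 9 of the 17 ovarian markers the transgenic arrays lay wholly below the wildtype arrays (31.1% of all genes did). In 2 they lay wholly above (27.2% of all genes). The oocyte gene Gdf9 read 271 and 228 in the wildtype and 113 and 140 in the transgenic mouse. Of the 13 skeletal muscle markers 9 lay wholly below and 2 wholly above. The 7 nerve and Schwann markers had 0 counted (Ncam1 0.24, S100b -0.78), with 6 wholly below and 1 wholly above. Of 5 erythrocyte markers Car2, also made by epithelium, was the 1 counted, higher. The summed erythrocyte signal was strong and uneven, at 5104 and 12476 in the wildtype and 11754 and 9279 in the transgenic arrays.

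Interferon response genes were higher as a group, though most fell short of the 2-fold gap. Of 42 measured, 4 were counted higher (9.52%, against 2.22% of all genes) and 0 lower. In 31 the transgenic arrays lay wholly above the wildtype arrays, against 27.2% of all genes, and in 0 wholly below, and the median was 0.63. Isg15, a ubiquitin-like modifier, had 300.4 and 517 on the wildtype arrays and 1329 and 1193 on the transgenic arrays, and the transcription factor Irf7 172 and 221 in the wildtype and 786 and 466 in the transgenic mouse. The antiviral synthetase Oas2 had 353 and 437 against 1029 and 1422 (wildtype, then transgenic), a 3.08-fold difference, and the fourth counted gene was the antiviral enzyme Rsad2 (1.25). For antigen presentation, 0 of 29 genes were higher and 1 was lower, the class II gene H2-Ob (-1.20). Within the list, the class I heavy chain gene H2-D1 was highest, at 1.53, and the class II genes H2-Eb1, H2-Aa and H2-Ab1 stood at -1.30, -1.13 and -1.0. The class I genes H2-Q1 (-0.06) and H2-M3 (0.05) lay near 0. The other listed class I genes, H2-Q8 (1.37), H2-Q7 (1.09), H2-K1 (0.85), H2-T10 (0.79), H2-T23 (0.48) and H2-Q2 (0.35), had transgenic arrays wholly above the wildtype arrays. The peptide transporter genes Tap1 and Tap2 stood at 0.95 and -0.67. Apart from H2-Ob, these antigen presentation genes were chosen after their values were seen, and none of them was counted. In 16 of the 29 the transgenic arrays lay wholly above the wildtype arrays (27.2% of all genes did). In 9 they lay wholly below (31.1% of all genes), and the median was 0.36.

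Among immune cell markers few were counted, set beside 2.22% of all genes counted higher and 2.75% lower. Macrophage and dendritic cell genes had 1 of 20 lower, the lectin Clec10a with 446 and 371 on the wildtype arrays and 143 and 158 on the transgenic arrays, and a median of 0.17. Their summed signal was 15019 and 13798 on the wildtype and 16359 and 16187 on the transgenic arrays. The B and plasma cell list had 1 of 8 lower, the surrogate light chain gene Vpreb3, with 681 and 1327 in the wildtype and 176 and 163 in the transgenic mouse. In that list 5 of the 8 had positive differences, 5 were near the floor in both mice, and the median was 0.04. T and NK cells (0 of 13, from Prf1 at -0.58 to Ccl5 at 0.70) and neutrophils and mast cells (0 of 16, from Mmp9 at -1.13 to S100a8 at 0.86) had none. In these lists 10 and 11 genes were near the floor in both mice, where a 2-fold gap was hardly possible. Of 31 chemokines and cytokines, Cxcl14 was higher with 201 and 243 against 973 and 513 (wildtype, then transgenic) and Cxcl15 lower with 191 and 259 on the wildtype arrays and 87.1 and 82.3 on the transgenic arrays. Complement and acute phase genes had 1 of 16 higher (6.25%), the serum amyloid Saa3 (1.28). Another 3 were lower (18.8%), the lipopolysaccharide-binding Lbp (-1.99), haptoglobin (Hp, -1.83) and Clu.

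Genes tied to hormones and growth factors differed at single members. The progesterone receptor gene Pgr read 134 and 138 in the wildtype and 284 and 404 in the transgenic mouse and was counted higher, from a wildtype level near the floor, while the estrogen receptor gene Esr1 read 2419 and 1805 against 2506 and 2148 (wildtype, then transgenic) and overlapped. Igf1 had 652 and 810.3 on the wildtype arrays and 1621 and 1739 on the transgenic arrays. The binding protein Igfbp2 had 173 and 197 in the wildtype and 570.5 and 394 in the transgenic mouse. Both were counted higher with gaps barely past the 2-fold line (log2 1.0001 and 1.0011), and Igfbp5 (-1.18) was lower. Of 23 estrogen-responsive and cycle genes 2 were higher (Pgr and Igf1) and 2 lower (Ccnd1 and Aqp1), and of 36 growth factors and receptors 2 were higher and 2 lower. These shares were 8.70% and 5.56% each way, against 2.22% of all genes higher and 2.75% lower. The labels do not give the cycle stage of the mice. Wnt, Notch and Hedgehog genes had 0 of 37 higher and 3 lower (8.11%), Rspo3 (-1.81), Wnt7b (-1.73) and Dkk3 (-1.48). The patterning list had 0 of 21 counted (Wnt5a 1.0, Hoxa7 -0.69), the epithelial-mesenchymal transition list 0 of 17 (Itgav 1.02, Mmp2 -1.28), and the oncofetal and germline list 0 of 10. At the shares of all genes, lists of these sizes would hold few counted genes.

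Housekeeping and metabolic lists held few counted genes. In cholesterol and fatty acid synthesis 2 of 22 were higher (9.09%, against 2.22% of all genes), Fdps with 538 and 798 against 2173 and 1984 (wildtype, then transgenic) and Cyp51 with 158 and 177 on the wildtype arrays and 431 and 563 on the transgenic arrays, and 13 had arrays wholly above the wildtype arrays (27.2% of all genes did). Hexokinase Hk2 was the 1 higher of 23 glycolysis and hypoxia genes, at 383 and 414 in the wildtype and 1283 and 1527 in the transgenic mouse. Of 30 glutathione and antioxidant enzymes 3 were lower (10%, against 2.75% of all genes). They were the peroxidase Gpx2 with 1052 and 1346 against 280.1 and 343 (wildtype, then transgenic) and the transferases Gstm1 (-1.59) and Gstm2 (-1.29). The cold-induced Rbm3 (1.30) was the 1 counted of 27 immediate early and stress genes, and the secretory pathway factor Creb3l4 (-2.23) the 1 of 24 unfolded protein genes. Oxidative phosphorylation (0 of 37, from Ndufa1 at -0.95 to Atp5o at 0.78) and ribosomal proteins (0 of 28, from Rps27 at -0.60 to Rps3 at 0.34) had none.

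The next comparison asked how the 9-week difference relates to that at 7 and 8 weeks, which comes from other mice. Across 11229 genes the 9-week log2 difference correlated at 0.770 with the 8-week and 0.756 with the 7-week difference, a description over genes of arrays normalized together. Of the 249 genes higher at 9 weeks, 244 had the same sign at both other ages, and of the 309 lower genes 292. A limma fit of the 4 younger mice alone called 560 genes higher (4.99%) and 610 lower (5.43%) at an adjusted p below 0.05. Of the genes higher at 9 weeks 207 were among them (83.1% of the 9-week genes and 37.0% of the younger set), and of the lower genes 194 (62.8% and 31.8%). In that younger set, 0 of the 9-week genes were called in the opposite direction. The younger set depends on its mice, with 162 higher and 83 lower when the 8-week transgenic mouse was left out, 307 and 224 when that of 7 weeks was, and 361 and 358 when the 8-week wildtype was. With the repeat number as a block it held 1017 and 1149.

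The 9-week difference itself was tested against the mean of the other 2 ages, with spread taken from the younger mice. By limma 0 of 11229 genes passed an adjusted p below 0.05, and 750 (6.68%) had an unadjusted p below 0.05. In simulated data this test found 16% of differences of log2 1 and 96% of those of log2 2, so modest shifts would be missed. Each probe's simulated variance was averaged with the median variance, so these shares need not hold for the measured genes. Large shifts could be missed too: a probe without a gene name departed by -4.33 and did not pass (limma adjusted p = 0.114). The lowest p values belonged to Dcpp1, Tpm2 and Gpx2 (limma adjusted p = 0.755 for each). Dcpp1 differed by -4.04 at 9 weeks and by -2.24 and -2.46 at 8 and 7 weeks. The smooth muscle tropomyosin Tpm2 differed by 0.15, -1.13 and -1.09, and Gpx2 by -1.94, -0.31 and 0.23 in the same order. Prap1 differed by 3.74 there against 5.96 and 5.79 (limma adjusted p = 0.755).

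Some gene groups still leaned 1 way without any member passing. In 32 of 36 axoneme genes (88.9%) the 9-week difference was lower than at both other ages, as it was in 38.5% of all genes, and the list medians were -1.41, -0.93 and -0.98 at 9, 8 and 7 weeks. Interferon response genes were smaller than at both other ages in 29 of 42 cases (69%), with medians of 0.63, 1.14 and 0.82. Mitosis genes were larger in 33 of 41 (80.5%) and replication genes in 31 of 37 (83.8%), against 36.2% of all genes. These members share the same 2 animals at 9 weeks, and 0 of them passed the limma test of the difference, with 9, 7, 3 and 1 at an unadjusted p below 0.05.

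**Figure D4:**
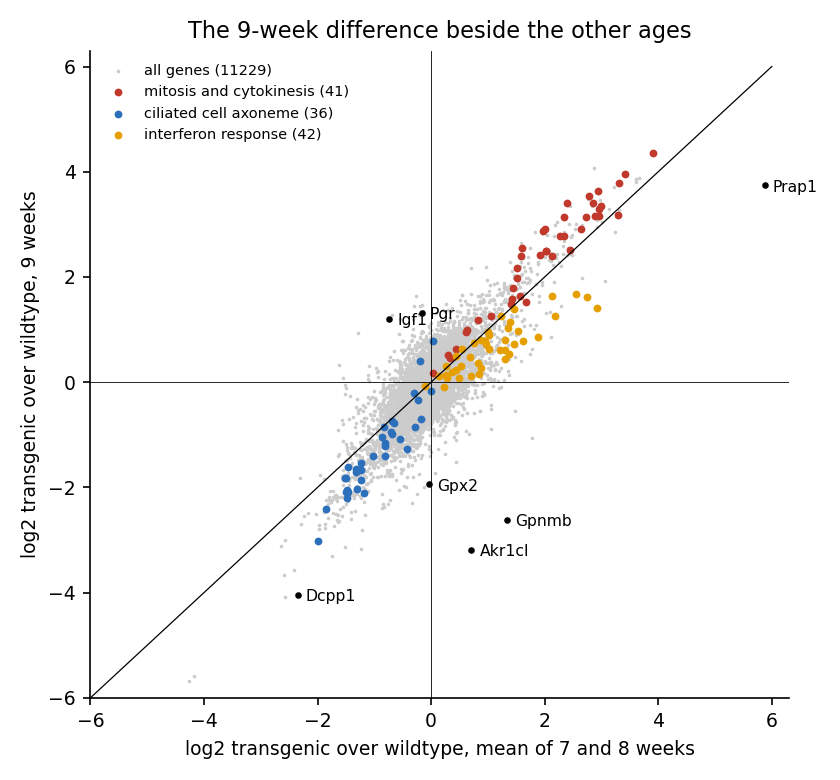
Log2 difference, transgenic over wildtype, at 9 weeks (vertical) against the mean of 7 and 8 weeks (horizontal) for 11229 genes, with the line marking equal differences. Mitosis genes (red) lie mostly above the line, axoneme genes (blue) and interferon genes (orange) mostly below it, and Gpnmb, Akr1cl and Prap1 stand far from it.

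At 2 genes the 9-week difference was opposite in sign to both other ages, by at least 2-fold each. Gpnmb, a glycoprotein of macrophages and pigment cells, had 1798 and 1054 on the wildtype arrays and 205 and 245 on the transgenic arrays at 9 weeks, or log2 -2.62, and differed by 1.17 and 1.51 at 8 and 7 weeks. A dimmer probe of Gpnmb gave -0.36 at 9 weeks. The drug efflux pump gene Abcb1b had 453 and 359 in the wildtype and 191 and 198 in the transgenic mouse (log2 -1.05), against 1.51 and 2.06. Other counted genes exceeded their difference at both other ages by the largest margins, some of them in the same direction at every age. Pgr, Igf1 and Igfbp2, counted higher at 9 weeks, differed by -0.31, -0.93 and -0.14 at 8 weeks and by -0.03, -0.55 and -0.15 at 7 weeks. The RNA-binding protein Raly differed by 1.64 at 9, -0.38 at 8 and -0.15 at 7 weeks, and the inflammasome sensor Naip5 by 2.18, 0.90 and 0.52. Among lower genes, Akr1cl differed by -3.19, -1.22 and 2.63 at 9, 8 and 7 weeks, Aox3 by -3.18, -1.46 and -1.03, and Pamr1 by -2.12, -0.02 and -0.47. None of these passed the limma test of the difference.

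The repeat arrays largely gave the same picture. The repeat 1 and repeat 2 differences correlated at 0.799 over 11229 genes. Disagreement was largest at genes whose level jumped on 1 array. Parathymosin, Ptms, had 416 and 374 against 2169 and 479 (wildtype, then transgenic), with transgenic repeat 1 as the high array. The phosphatase gene Ptpre had 2994 and 2427 on the wildtype arrays and 1984 and 423 on the transgenic arrays, with transgenic repeat 2 as the low array. The globin gene Hba-a1 had 3966 and 11493 in the wildtype and 9656 and 8015 in the transgenic mouse, and wildtype repeat 1 was the low array. The fat hormone gene Adipoq had 339.7 and 86.4 against 94.5 and 103 (wildtype, then transgenic), with wildtype repeat 1 as the high array. Mt3, Selenow, Mef2c, Hoxb4, Rbfox2 and Bach1 followed, where the repeat 1 and repeat 2 differences lay 1.59 to 1.77 apart on the log2 scale, and none of the 10 genes was counted.

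**Figure D5:**
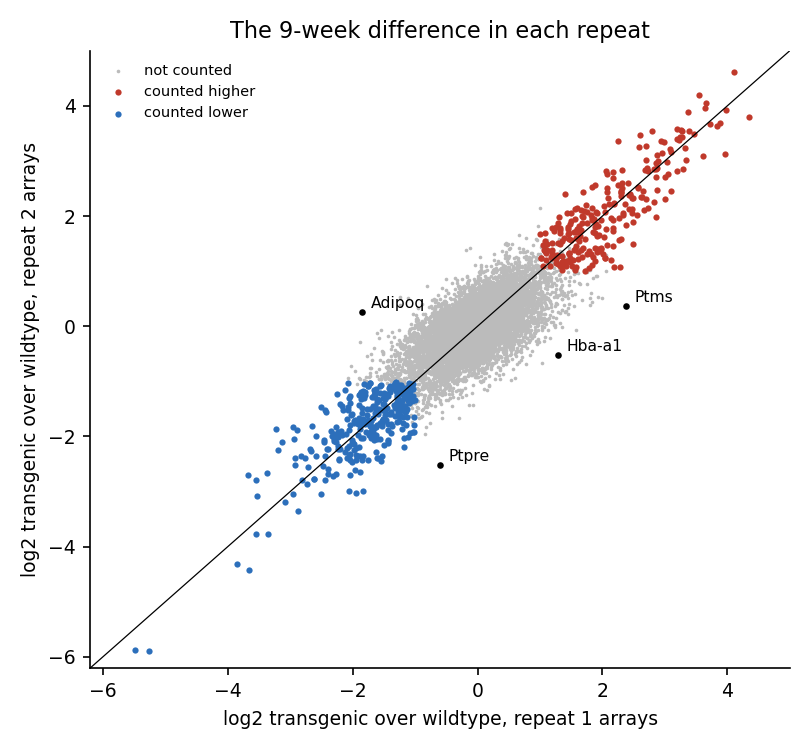
Log2 difference, transgenic over wildtype at 9 weeks, between the repeat 2 arrays (vertical) and between the repeat 1 arrays (horizontal) for 11229 genes, with counted genes in colour. Counted genes follow the line of equal differences, while Ptms, Ptpre, Hba-a1 and Adipoq lie away from it.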

How the data were processed

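The deposited values are 1 score per probe and array, which the authors standardized per array. GenomeStudio 1.6.0 is named in the submitters' processing notes. Undoing the standardization gave signals with 1 decimal for 100% of values on every array (tolerance 0.01), and these recovered signals were quantile-normalized over all 12 arrays and put on the log2 scale without background correction. A further 24 columns of scanner values match no single sample and were not used. Of 16664 probes 15687 had 1 gene symbol, and a gene took its probe with the highest mean, which gave 11229 genes. Arrays of a mouse were averaged, and limma 3.58.1 in R 4.3.3 fitted mouse means with Benjamini-Hochberg adjustment over all probes, with 2 mice a genotype and 2 residual degrees of freedom. The number of arrays and mice limits the precision. Python 3.11.15, numpy 2.4.6, pandas 2.3.3 and matplotlib 3.10.9 did the rest.

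Repeat numbers paired the arrays in part: deviations of same-numbered arrays correlated by 0.110 to 0.641 in all 15 pairs of mice (median 0.459). Between the wildtype and transgenic mice of 9 weeks the correlation was 0.170. Gene lists were chosen with earlier results of these data known. Genes named were the 15 largest differences each way, up to 3 members each way per list and preset regulators. The extremes of the age and repeat comparisons were named too. Clone and model names were left out of the 15 largest and of the rankings by margin between ages and by repeat. Other list members were named after their values were seen. On simulated data of 16664 probes the fit of the younger mice recovered 90% of log2 differences of 1 with 10 false among 205 calls, and the test of 9 weeks gave 19 false among 171. Background correction, scaling, a filter on dim probes, other folds, single repeats and mice left out were tried as alternatives.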

Additional observations from a re-analysis of the deposited data

Results flagged for a closer look

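Gpnmb was singled out because the 9-week difference opposed that of both other ages by at least 2-fold each. It was -2.62 on the log2 scale at 9 weeks, 1.17 at 8 weeks and 1.51 at 7 weeks. In the limma test of the 9-week difference against the other ages, the departure was -3.96 with an adjusted p of 0.755.

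Abcb1b was singled out for the same reason, with -1.05 at 9 weeks, 1.51 at 8 weeks and 2.06 at 7 weeks. Its departure was -2.83, with a limma adjusted p of 0.755, and its arrays were not 2-fold apart at 9 weeks.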

How the results depend on the processing

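The counts of 249 higher and 309 lower genes moved with the strictness of the rule. They were 551 and 730 at 1.5-fold, 125 and 112 at 3-fold, and 379 and 519 by the mean difference alone. Repeat 1 alone gave 483 and 640, and repeat 2 alone 435 and 541. Leaving out 1 array gave 297 to 369 higher and 390 to 494 lower, the highest counts being those without transgenic repeat 2. With an array left out, fewer arrays must clear the line. Normexp, median scaling, the deposited scale and the filter on dim probes kept both counts within 1.5 times, as did the pairing of repeats as a block (284 and 361). Of the 142 named genes, 98 were counted, and 0 of these changed sign in the settings that gave a value, the filter on dim probes keeping 128 of the 142. Of the 44 that were not counted, 12 changed sign with repeats alone or an array left out, Adipoq and Hba-a1 among them.

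In the younger mice the 560 higher and 610 lower genes became 1017 and 1149 with the repeat number as a block, 891 and 1055 with age as a term, and 425 and 371 with repeat 1 alone. Leaving out 1 mouse gave 162 to 413 higher and 83 to 411 lower, where the lone mouse of a genotype is assumed to vary like the others. The cause was not tested. The test of 9 weeks against the other ages called 0 named genes in every setting run. With the block it called 1 probe without a gene name, given among the other observations, and the 9-week counts stayed within 1.5 times. Signal close to the floor limits the folds of dim genes, and 2759 genes were near it in both mice.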

Other observations

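Counted genes outside the lists, chosen after their values were seen, held further members of the same machinery. Among higher genes were centromere proteins, Cenpp at 3.05, Cenpk at 2.84, Cenpn at 2.33 and Cenpm at 2.21, and the spindle protein Spag5 at 3.36. The kallikrein genes Klk1 (2.22) and Klk1b5 (2.28), secreted proteases that are close copies, were also higher. Among lower genes were the axoneme assembly factor Dnaaf1 (-2.69), the dynein regulator Drc3 (-2.18) and Cfap65 (-2.42), with the goblet cell factor Spdef (-2.19) and the secreted airway protein Bpifb1 (-2.31). The anti-Mullerian hormone receptor gene Amhr2 was lower too, with 366 and 339 in the wildtype and 101 and 113 in the transgenic mouse.

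The class II genes named above lay lower at 9 weeks than at the other ages. H2-Eb1 differed by -1.30 at 9, -0.67 at 8 and 0.01 at 7 weeks, and Cd74, the invariant chain, by -0.76, -0.11 and 0.08.

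A probe without a gene name in the platform annotation separated the 9-week wildtype mouse from the other wildtype mice. It read 1821 and 998 in the wildtype and 1560 and 1232 in the transgenic mouse at 9 weeks. At 8 weeks it read 98.8 and 101 against 2333 and 1962, and at 7 weeks 89.96 and 89.1 against 2047 and 1546. Its 9-week departure of -4.33 (SE 0.23) had a limma adjusted p of 0.114, and the adjusted p was 0.0321 with normexp, 0.0160 with the filter on dim probes, 0.0467 with repeat 1 alone and 4.69e-05 with the replicate block. In the other 8 settings run, which were median scaling, the deposited scale, repeat 2 alone, array weights and each younger mouse left out, it did not pass (0.0547 to 0.449).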
